A study of Mus musculus with 4 samples.

Results

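The 9 genes described here encode proteins that move nucleosomes or modify histones and that act as tumour suppressors: Smarca4, Smarca2, Smarcb1, Arid1a, Arid1b, Arid2, Kmt2d, Setd2 and Bap1. They were taken by name from 22180 gene names on a DNA copy-number array, Kmt2d under the older name BC032281, and 71 of the 107776 named probes belong to them. The samples were liver tumours 1 to 4, from 4 male mice labelled Trp53-/-, in which the series title places the loss of Trp53 in the liver, on the C57BL/6J background. Each was hybridised on its own array against spleen DNA, labelled Trp53-/- and male as well, which the series design describes as pooled from 3 littermates of the same sex. Tumour DNA carried the red dye and spleen DNA the green dye on all 4 arrays. A dye effect of a probe that all 4 arrays share therefore cannot be told apart from a change in copy number. The mice were labelled as untreated. Their age and the driver of the Trp53 deletion are not given in the sources used here.

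A gene value is the mean, over the probes of the gene, of the log2 ratio of tumour over spleen, so that 0 stands for the median of the autosomes in that tumour. In pure diploid cells the loss of 1 of 2 copies would read -1 and the gain of 1 copy 0.58. A tissue sample can also hold cells without the change, and a change in few cells cannot be told apart from a smaller mean change in all of them. The spread of the spleen reference does not enter any test.

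Remodellers of the SWI/SNF family use ATP to slide or evict nucleosomes and so open chromatin to transcription factors. They are built around 1 of the 2 ATPases SMARCA4 (BRG1) and SMARCA2 (BRM). Their canonical BAF and PBAF forms share core subunits such as SMARCB1. Canonical BAF carries an ARID1 subunit, ARID1A or ARID1B, and PBAF carries ARID2. KMT2D methylates histone H3 at enhancers, SETD2 methylates it along transcribed genes, and BAP1 removes ubiquitin from histone H2A. In human liver cancer ARID1A and ARID2 are among the recurrently mutated genes.

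Array quality differed between tumours. The SD between neighbouring probes was 0.12 in tumour 1, 0.37 in tumour 2 and 0.15 in tumours 3 and 4. The header of tumour 2's file puts the spread of that array out of range. The log2 ratio also rose by 0.41 per 10% of probe GC content on that array, against 0.04 to 0.07 on the others. Over all probes the ratios of tumours 1 and 4 correlated at r = -0.61 across 169083 probes, and over autosomal probes at r = 0.18. Between pairs of tumours the autosomal r ranged from 0.14 for tumours 1 and 2 to 0.50 for tumours 2 and 3. The 5 X-linked genes among related chromatin genes read between -0.97 and -0.74 in tumour 1 and between 0.49 and 0.87 in tumour 4, although both channels were labelled male on every array. The cause of the X ratios was not tested, nor whether the same spleen pool served all 4 arrays. All 9 genes lie on autosomes, the dyes are stated in the labels, and the direction was kept.

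The genes that stood away from 0 were those on chromosomes 9 and 15. Arid2 and Kmt2d, both on chromosome 15, were above 0 in all 4 tumours, and Smarca4 and Setd2, both on chromosome 9, were below 0 in all 4. The other 5 genes, on chromosomes 4, 10, 14, 17 and 19, took both signs among the tumours. Of 13387 autosomal genes with at least 2 probes, 14.3% were above 0 in all 4 tumours and 16.8% below 0 in all 4. On chromosome 15 alone 83.2% were above 0 in all 4 tumours, and on chromosome 9 alone 45% were below 0 in all 4. The 4 genes had the sign of the median gene of their chromosomes, 0.22 on chromosome 15 and -0.12 on chromosome 9. Means ranked from Kmt2d at 0.32 through Arid2 at 0.20, Smarcb1 at 0.00, Arid1a at -0.00, Arid1b at -0.03, Bap1 at -0.03, Smarca2 at -0.04 and Smarca4 at -0.18 to Setd2 at -0.19. The mean signs of Arid1a, Smarcb1 and Bap1 turned under some other settings, Smarcb1 also under another centring. The 5 genes from Smarcb1 to Smarca2 differed from each other by less than the SD over tumours of Smarca2, 0.09. Smarca4 and Setd2 differed by less than their SDs of 0.12 and 0.14, and Kmt2d and Arid2 by less than the SD of Kmt2d, 0.32.

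No member passed limma's moderated test against 0 with Benjamini-Hochberg adjustment over 13919 genes, in which 0% of genes were called higher and 0% lower at an adjusted p under 0.05. At an unadjusted p under 0.05, limma gave 6.67% of genes higher and 9.28% lower, among them Arid2 higher and Smarca4 and Setd2 lower. A sign-flip test over 4 tumours cannot give a p below 0.13 (rounded). The separate origin of the 4 tumours is stated by the series design. As each mouse had its own array, the spread in these tests holds differences between mice and between arrays together.

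**Figure D1:**
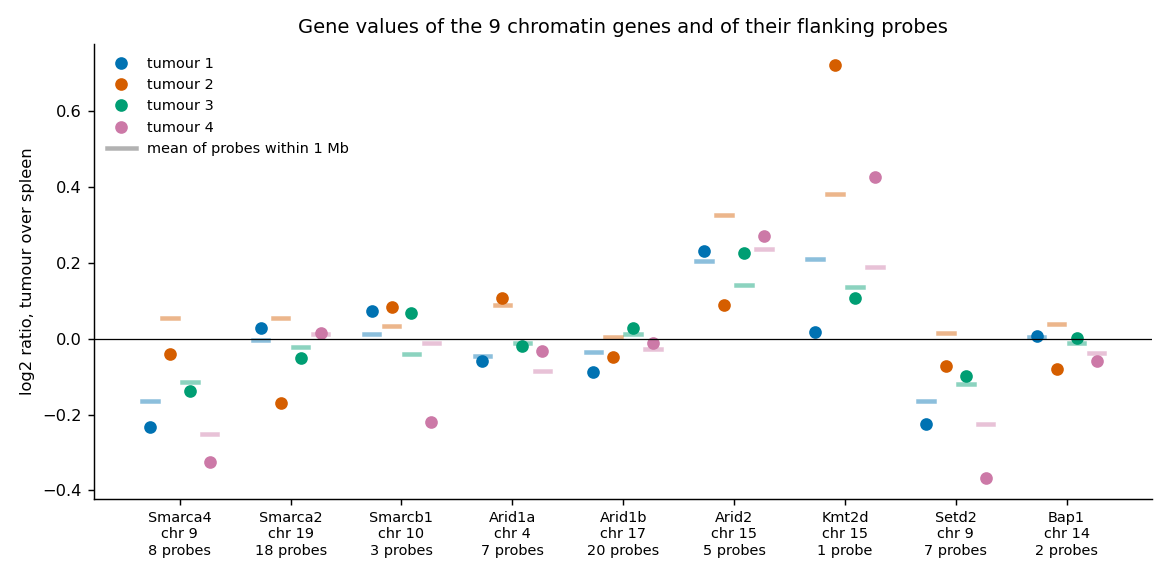
Gene values of the 9 genes in tumours 1 to 4 (points, log2 ratio of tumour over spleen, from left to right within each gene) with the mean of the probes within 1 Mb of the same tumour (bars). Arid2 and Kmt2d sit above 0 and Smarca4 and Setd2 below 0 in all 4 tumours, and the flanks of tumours 1, 3 and 4 lie on the same side as these genes.

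Smarca4, the BRG1 ATPase gene, was covered by 8 probes over 70.0 kb (chr9:21421402-21491438, mm9). It read -0.23, -0.04, -0.14 and -0.33 in tumours 1 to 4. It was thus below spleen in every tumour, lowest in tumour 4 and close to 0 in tumour 2, where removing the trend of ratios with intensity put it at 0.02, above 0. The mean was -0.18 ± 0.12 (SD, n = 4), a ratio of 0.880, with an adjusted p of 0.230 in limma and an exact two-sided sign-flip p of 0.13, the smallest possible. Without tumours 1 and 4, the arrays with X ratios far from 0, the mean was -0.09. On chromosome 9, 180 of the 796 genes with at least 2 probes had a lower mean. The 215 probes within 1 Mb read -0.16, 0.06, -0.11 and -0.25. The neighbourhood was thus low in tumours 1, 3 and 4 and not in tumour 2.

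Smarca4 was the member that lay below its own flank in all 4 tumours, by -0.07, -0.10, -0.02 and -0.07. Of 13385 autosomal genes, 13.9% were below their flanks in all 4 tumours and 15.2% above them, so 1 of 9 members is near the background. The mean difference was -0.07 ± 0.03 (SD, n = 4; exact sign-flip p = 0.13; adjusted p = 0.372 in limma over 13914 genes). That limma fit called 0% of genes higher and 0% lower at an adjusted p under 0.05, and 6.87% higher and 7.15% lower at an unadjusted p under 0.05. The difference was -0.10 against a flank of 0.5 Mb and -0.04 with the intensity trend removed.

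Along Smarca4 the probes were uneven. Of its 8 probes, 4 were below 0 in all 4 tumours and none was above 0 in all 4. Over all autosomal probes, 14.2% were below 0 and 15.5% above 0 in all 4 tumours, and over the 71 probes of the 9 genes 18 were below and 9 above. Probe 1 (chr9:21421402-21421461, mm9) had the lowest mean of the 71, -0.53 ± 0.21 (SD, n = 4). It read -0.81, -0.36, -0.38 and -0.59 in tumours 1 to 4, and its processed signals in tumour 1 were 292 in tumour DNA and 507 in spleen DNA. Probe 2 (chr9:21427182-21427241, mm9), 5.78 kb further along, read 0.15, -0.00, -0.04 and -0.09, so the low value of probe 1 did not extend to the next probe in tumour 1. Both are shown because their means over tumours are the lowest and the highest of the gene. Single values reached 0.48, at probe 5 in tumour 2. Capitals, here and below, mark runs of at least 6 equal bases. The sequences are the deposited probes, 5′ to 3′ as listed, and the files do not give the strand.
Smarca4 probe 1: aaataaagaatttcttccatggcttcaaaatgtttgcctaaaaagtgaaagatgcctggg
Smarca4 probe 2: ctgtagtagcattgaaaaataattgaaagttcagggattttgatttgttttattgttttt

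BC098472, the nearest gene before Smarca4 on the array with at least 2 probes, lay 14.1 kb away. It read -0.09, 0.19, -0.18 and -0.29 in tumours 1 to 4, below 0 in tumours 1, 3 and 4.

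Smarca2, the gene of the alternative ATPase BRM on chromosome 19, showed no common direction. It was covered by 18 probes over 169 kb (chr19:26683401-26852356, mm9). The gene read 0.03, -0.17, -0.05 and 0.01 in tumours 1 to 4, lowest on the noisiest array. Its mean was -0.04 ± 0.09 (SD, n = 4; adjusted p = 0.648 in limma), against 0.01 ± 0.03 for its 96 flanking probes. Single probes of Smarca2 ranged from -1.03 to 0.36, both extremes in tumour 2. Of its 18 probes, 2 were above 0 and 4 below 0 in all 4 tumours.

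Smarcb1, the gene of the core subunit SNF5 on chromosome 10, read 0.07, 0.08, 0.07 and -0.22 in tumours 1 to 4. The first 3 tumours lay within 0.02 of each other and tumour 4 lay apart. The mean was 0.00 ± 0.15 (SD, n = 4; adjusted p = 0.993 in limma). Its 187 flanking probes read 0.01, 0.03, -0.04 and -0.01, so the neighbourhood of Smarcb1 was near 0 in tumour 4 too. The gene had 3 probes (chr10:75368867-75380110, mm9), and probe 2 (chr10:75375391-75375450) alone read -0.57 in tumour 4, against 0.10, 0.23 and 0.13 in tumours 1 to 3. Its processed signals in tumour 4 were 1406 in tumour DNA and 2122 in spleen DNA. Probes 1 and 3 read -0.00 and -0.09 in tumour 4, and the segment that holds the gene there had a mean of 0.01 over 1140 probes. Probe 2 is printed because it sets the value of tumour 4.
Smarcb1 probe 2: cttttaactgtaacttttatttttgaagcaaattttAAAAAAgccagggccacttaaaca

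Arid1a and Arid1b, the genes of the alternative ARID1 subunits, stayed near 0. Arid1a on chromosome 4 had 7 probes (chr4:133238540-133300481, mm9) and read -0.06, 0.11, -0.02 and -0.03 in tumours 1 to 4. Its mean was -0.00 ± 0.07 (SD, n = 4), with an adjusted p of 0.993 in limma. It followed its flank, which read -0.05, 0.09, -0.01 and -0.09. The gene minus its flank ranged from -0.01 to 0.05 and averaged 0.01. With normexp background correction this difference was 0.07, 0.16, 0.06 and 0.12 in tumours 1 to 4, above 0 in all, with a mean of 0.10 and an adjusted p of 0.150 in limma. Arid1b on chromosome 17 had 20 probes over 341 kb (chr17:5003368-5344358, mm9), the longest stretch of the 9 genes. Its values were -0.09, -0.05, 0.03 and -0.01, and they averaged -0.03 ± 0.05 (SD, n = 4; adjusted p = 0.698 in limma). In tumour 1, 16 of its 20 probes were below 0, and in tumour 3, 14 were above 0. Its flank of 148 probes read -0.04, 0.01, 0.01 and -0.03 in tumours 1 to 4, on the side of the gene except in tumour 2. Of 10 bins of 200 kb around Arid1b, 9 were below 0 in tumour 1 and 7 above 0 in tumour 3. The other probes of chromosome 17 averaged -0.07 in tumour 1 and 0.00 in tumour 3. No segment over either gene reached the call threshold in any tumour, and the segment means ranged from -0.08 to 0.07.

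Arid2, the gene of the ARID subunit of PBAF, was above spleen in every tumour. Its 5 probes (chr15:96191345-96235837, mm9) gave 0.23, 0.09, 0.23 and 0.27 in tumours 1 to 4. The value of tumour 2 was the lowest, and the other 3 tumours lay within 0.05 of each other. The mean was 0.20 ± 0.08 (SD, n = 4), a ratio of 1.15, with an adjusted p of 0.137 in limma and an exact sign-flip p of 0.13. Limma's array weights gave 0.23 with an adjusted p of 0.044 in limma, the 1 setting of 14 that passed 0.05. These weights were estimated from the gene values of the same 4 tumours and are no separate measure of array quality. The weight was lowest for tumour 2, the noisiest array. It was highest for tumour 3, at 2.87, although tumour 1 had the lowest SD between neighbouring probes. A difference between tumours can therefore lower a weight as noise does. The flank of 132 probes read 0.21, 0.33, 0.14 and 0.24, and the gene minus its flank read 0.03, -0.24, 0.08 and 0.03. Without tumour 2 that difference averaged 0.05, and with normexp it was below 0 in all 4 tumours and averaged -0.11. Over tumours that difference was -0.02 ± 0.14 (SD, n = 4), with an adjusted p of 0.836 in limma. Of the 535 genes of chromosome 15 with at least 2 probes, 227 had a lower mean than Arid2.

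The low value of Arid2 in tumour 2 came from 1 probe. Probes 1 to 4 were above 0 in all 4 tumours, with means of 0.32, 0.38, 0.18 and 0.29. Probe 5 (chr15:96235778-96235837, mm9), at the end of the gene, read 0.44, -0.89, -0.04 and -0.11. Its processed signals in tumour 2 were 345 in tumour DNA and 641 in spleen DNA. The median over the 5 probes, which gives 1 probe less weight, averaged 0.25 over tumours. Probe 2 (chr15:96216602-96216661), the highest on average at 0.38 ± 0.19 (SD, n = 4), is printed beside probe 5, which holds a run of equal bases that probe 2 lacks. The part of that run in the value was not tested.
Arid2 probe 2: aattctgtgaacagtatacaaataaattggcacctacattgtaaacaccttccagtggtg
Arid2 probe 5: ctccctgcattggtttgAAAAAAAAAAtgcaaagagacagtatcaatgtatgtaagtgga

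Next to Arid2, Sfrs2ip (5 probes, 12.6 kb after it) read 0.21, 0.23, 0.16 and 0.15 in tumours 1 to 4, above 0 in all. AK007269 (4 probes, 17.3 kb before it) read 0.24, -0.01, 0.16 and -0.07. In 200 kb bins up to 1 Mb on both sides of Arid2, all 10 bins were above 0 in all 4 tumours, the lowest at 0.05 in tumour 3 and the highest at 0.49 in tumour 2.

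**Figure D2:**
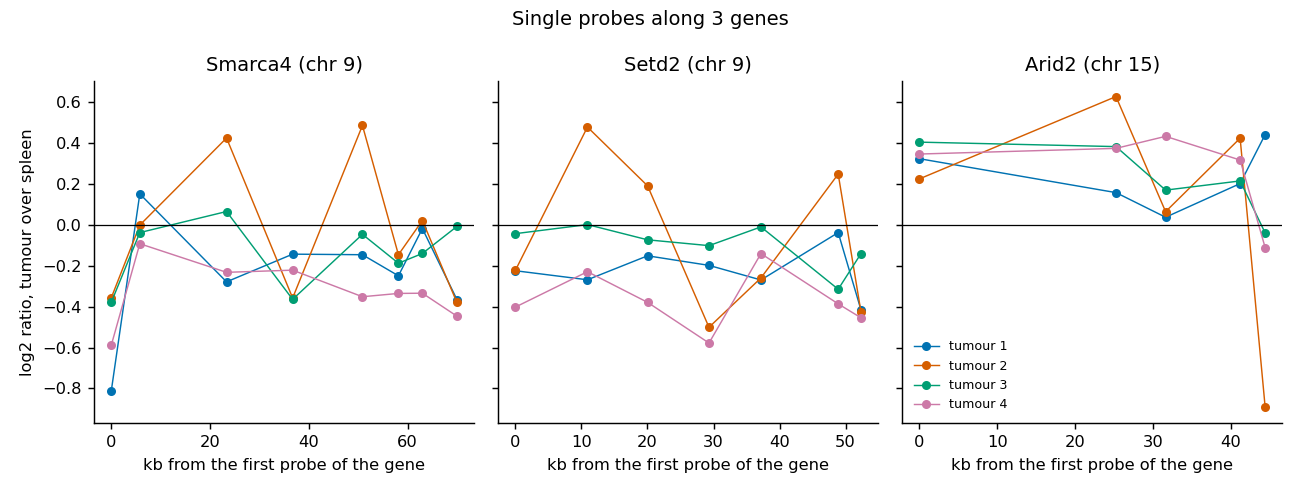
Log2 ratio of tumour over spleen at each probe of Smarca4, Setd2 and Arid2, against the distance in kb from the first probe of the gene, with 1 line per tumour. Probe 5 of Arid2 falls to -0.89 in tumour 2, and probe 1 of Smarca4 is below 0 in all 4 tumours.

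Kmt2d, the gene of the enhancer methyltransferase, lies 2.46 Mb beyond Arid2 on chromosome 15 and was read by 1 probe (chr15:98697449-98697508, mm9). It gave 0.02, 0.72, 0.11 and 0.43 in tumours 1 to 4, above 0 in all 4 but near 0 in tumour 1. The mean was 0.32 ± 0.32 (SD, n = 4; exact sign-flip p = 0.13). With 1 probe it did not enter the fit over genes with at least 2 probes, and with genes of 1 probe kept its adjusted p in limma was 0.328. Without tumour 2 the mean was 0.18, and with the intensity trend removed 0.20. The 248 flanking probes read 0.21, 0.38, 0.14 and 0.19, so the flank was less spread than the gene. Kmt2d minus its flank was -0.19, 0.34, -0.03 and 0.24, on both sides of 0. The probe of Kmt2d is printed because the whole value rests on it.
Kmt2d probe 1: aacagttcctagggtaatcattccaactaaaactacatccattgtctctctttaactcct

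Prkag1, a subunit gene of AMP-activated protein kinase 38.3 kb before Kmt2d, read 0.11, 0.63, 0.15 and 0.32 in tumours 1 to 4. This is the same order of tumours as for Kmt2d. Lmbr1l, 42.4 kb after it, read 0.08, 0.11, -0.04 and 0.04. Both neighbours have 2 probes. All 10 bins of 200 kb around Kmt2d were above 0 in all 4 tumours, with a range of 0.09 to 0.53.

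Setd2, the gene of the methyltransferase that acts along transcribed genes, was below spleen in every tumour. Its 7 probes (chr9:110465415-110517813, mm9) gave -0.22, -0.07, -0.10 and -0.37 in tumours 1 to 4. As with Smarca4, tumour 4 was lowest, tumour 1 next and tumour 2 nearest to 0. The mean was -0.19 ± 0.14 (SD, n = 4), a ratio of 0.876, with an adjusted p of 0.242 in limma and an exact sign-flip p of 0.13. Without tumours 1 and 4 the mean was -0.08, and the means of the segments that hold Setd2 averaged -0.11. On chromosome 9, 160 of 796 genes had a lower mean. The 194 flanking probes read -0.16, 0.02, -0.12 and -0.22, and the gene minus its flank read -0.06, -0.09, 0.02 and -0.14 (mean -0.07 ± 0.07, SD, n = 4; adjusted p = 0.408 in limma). Without tumour 4 that difference averaged -0.04.

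Of the 7 probes of Setd2, 4 were below 0 in all 4 tumours. In tumours 1 and 4 all 7 were below 0, and in tumour 2, 3 were above 0. Probe 7 (chr9:110517754-110517813, mm9) was the lowest on average, at -0.36 ± 0.15 (SD, n = 4), with -0.42, -0.43, -0.14 and -0.45 in tumours 1 to 4. It is printed as the probe of Setd2 with the lowest mean.
Setd2 probe 7: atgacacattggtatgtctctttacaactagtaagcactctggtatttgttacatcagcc

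Ccdc12, 41.8 kb after Setd2 with 5 probes, read -0.17, -0.07, -0.08 and -0.39 in tumours 1 to 4, close to Setd2 in each. Kif9, 53.2 kb before it with 2 probes, read 0.03, 0.07, 0.10 and -0.06. All 10 bins of 200 kb around Setd2 were below 0 in tumours 1, 3 and 4, and in tumour 2, 5 of 10 were. Around Smarca4 the same held for tumours 1, 3 and 4, and 3 of 10 bins were below 0 in tumour 2.

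**Figure D3:**
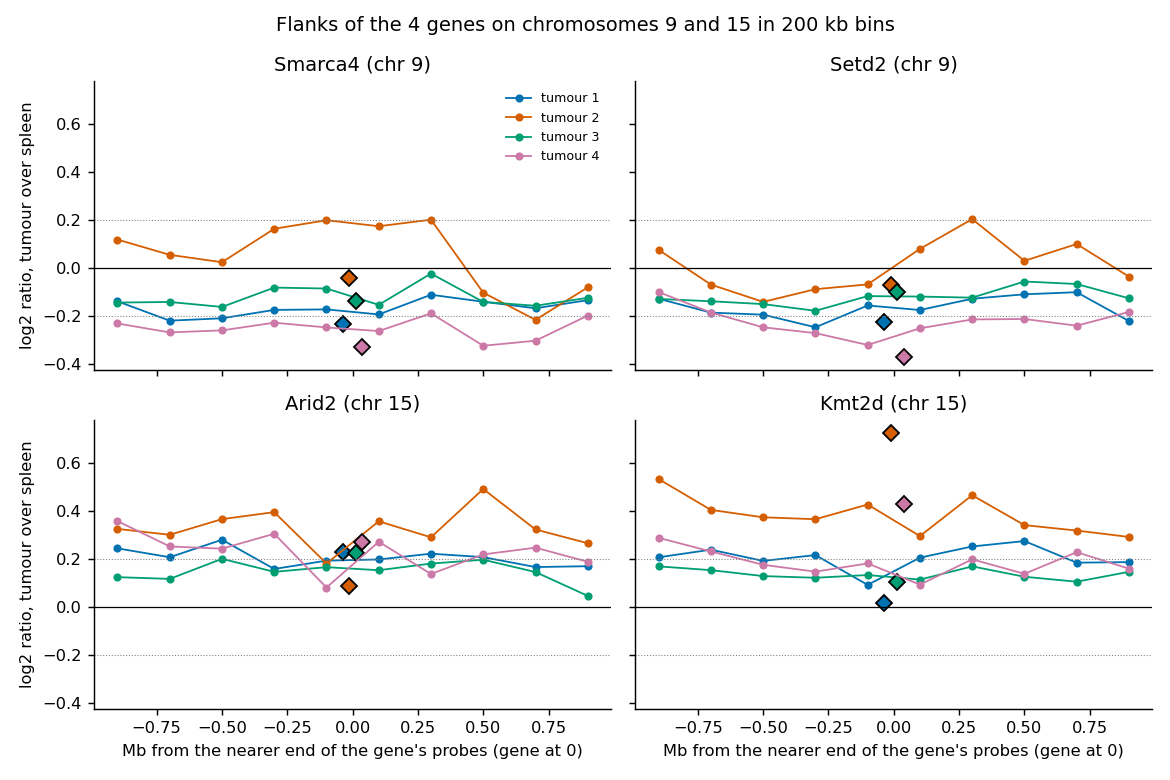
Mean log2 ratio of tumour over spleen in 200 kb bins on either side of Smarca4, Setd2, Arid2 and Kmt2d, by distance in Mb from the gene's probes, with gene values as diamonds at 0 and dotted lines at the call thresholds of 0.2 and -0.2. All 10 bins around Arid2 and Kmt2d lie above 0 in all 4 tumours.

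Bap1, the deubiquitinase gene on chromosome 14, had 2 probes (chr14:32066527-32072366, mm9), which went opposite ways. Probe 1 was above 0 and probe 2 below 0 in all 4 tumours, with means of 0.05 ± 0.03 and -0.11 ± 0.09 (SD, n = 4). The gene values of tumours 1 to 4 were 0.01, -0.08, 0.00 and -0.06, which average -0.03 ± 0.04 (SD, n = 4; adjusted p = 0.672 in limma). Its flank of 207 probes averaged -0.00 ± 0.03.

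Each array was also divided into segments, and a gene took the call of the segment at its middle probe. Calls needed 5 or more probes and a segment mean of 0.2 or above for a gain, or -0.2 or below for a loss. Of the 36 pairs of gene and tumour, 4 were called gained and 2 lost. Arid2 and Kmt2d were called gained in tumours 1 and 2, where 4% and 4.6% of 21341 autosomal genes were called gained. In tumours 3 and 4, where 0.0234% and 2.18% were called gained, neither was. Smarca4 and Setd2 were called lost in tumour 4, where 5.55% of genes were called lost. In tumours 1, 2 and 3, where 0.117%, 0.319% and 0.00937% were called lost, neither was.

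The called segments differed in length. In tumour 1 the segment over both chromosome 15 genes spanned 70.2 Mb (mean 0.21), and in tumour 2 it spanned 36.7 Mb (mean 0.36). All 844 chromosome 15 genes were called gained in both tumours, which is 100%. In tumour 4, Setd2 lay in a lost segment of 20.1 Mb (mean -0.21 over 1543 probes) and Smarca4 in another of 2.32 Mb (mean -0.26 over 246 probes, chr9:20133191-22455984, mm9), while 62.5% of the chromosome 9 genes were called lost. The uncalled segments had the same sign at the chromosome 15 genes, with means of 0.13 in tumour 3 and 0.19 in tumour 4. On chromosome 9 they read -0.18, -0.02 and -0.12 at Smarca4 in tumours 1, 2 and 3, and -0.15, 0.06 and -0.12 at Setd2. No segment over Smarca2, Smarcb1, Arid1a, Arid1b or Bap1 was called in any tumour.

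**Figure D4:**
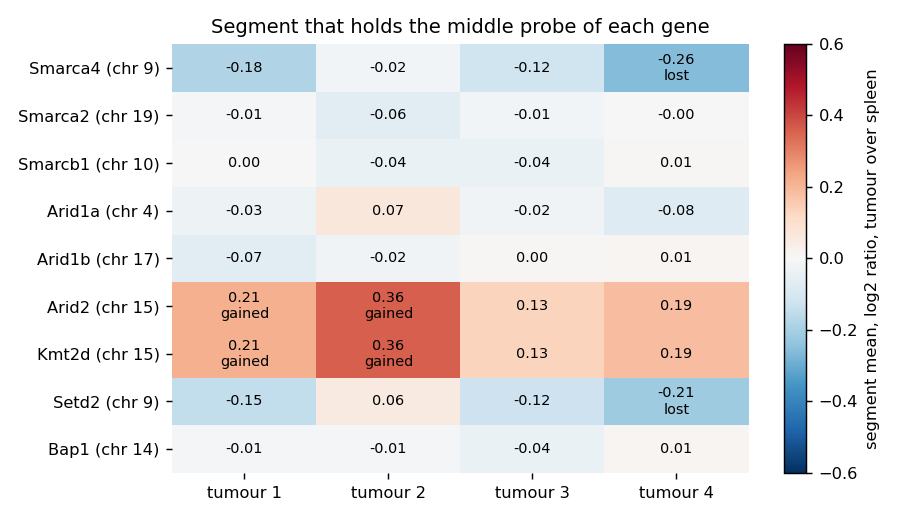
Mean log2 ratio of tumour over spleen of the segment that holds the middle probe of each gene, by tumour, with the call written in the cell. Arid2 and Kmt2d share a segment in every tumour, and the called cells are Arid2 and Kmt2d in tumours 1 and 2 and Smarca4 and Setd2 in tumour 4.

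Related chromatin genes were read from 4 lists: other SWI/SNF subunits, histone methyltransferases and their partners, BAP1 and polycomb partners, and other remodeller ATPases. Of 79 entries, 71 were matched to the array, and 61 were autosomal with at least 2 probes. Of these 61, 5 were above 0 and 19 below 0 in all 4 tumours, beside 14.3% and 16.8% of all autosomal genes. Their median mean was -0.05, against -0.01 over all autosomal genes. None passed limma at an adjusted p under 0.05, and at an unadjusted p under 0.05 limma gave 2 of the 61 higher and 12 lower, beside 6.67% and 9.28% of all genes tested. By list, 4 of 18 SWI/SNF subunits, 9 of 18 methyltransferases and partners, 3 of 12 BAP1 and polycomb partners and 3 of 13 remodeller ATPases were below 0 in all 4 tumours. Above 0 in all 4 were 3 SWI/SNF subunits and 2 methyltransferases and partners.

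Among list genes with at least 2 probes, the highest means belonged to SWI/SNF subunits. Actl6b, the actin-like subunit of the neuronal form, averaged 0.19 ± 0.20, Smarcd1 0.18 ± 0.08 and Ss18 0.16 ± 0.13 (SD, n = 4 each). The lowest were Asxl2, which encodes a partner of BAP1, at -0.27 ± 0.04, Smarca5, which encodes the ATPase of the ISWI remodellers, at -0.26 ± 0.19, and Ezh2, which encodes the polycomb methyltransferase, at -0.25 ± 0.12 (SD, n = 4 each). Asxl2 on chromosome 12 read -0.29, -0.30, -0.23 and -0.24 in tumours 1 to 4, with little spread over tumours. Its mean against its flank was smaller, -0.12 (adjusted p = 0.356 in limma), so nearby probes were low too.

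List genes on the 2 chromosomes of the shifted members carried the same signs, and were picked out after their values were seen. Smarcd1, a SWI/SNF subunit gene on chromosome 15, read 0.10, 0.24, 0.27 and 0.12 in tumours 1 to 4. On chromosome 9, Smarcc1, another core subunit gene, read -0.19, -0.06, -0.22 and -0.29, and Kmt2a, the MLL1 methyltransferase gene, read -0.15, -0.11, -0.12 and -0.27. The lists held no other matched gene on these chromosomes.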

How the data were processed

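Genomic DNA of 4 tumours was hybridised against pooled spleen DNA on 2-colour arrays lying on 2 slides. The reference is written as spleen, after the labels and the series design; the protocol for dye labelling calls it liver. The processed intensities deposited for both channels came from Agilent Feature Extraction 12.0.1.1, per the file headers (12.0.0 per the submitters' processing notes). They were background-subtracted and dye-normalized linearly, with probe positions on mm9. The deposited mean and background intensities served the normexp alternative, and the deposited log10 ratio only checked the direction (within 0.001 of red over green for at least 99.7% of spots).

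The log2 ratio was computed per spot, flagged spots were left out (81 to 258 per array, none in the 71 probes), and each array was centred on its autosomal median. No loess was applied. At least 98.99% of spots were well above background, and the number of arrays limits precision. Flanks were the probes within 1 Mb. Gene values and gene minus flank were tested with exact two-sided sign-flip tests and with limma 3.58.1 (R 4.3.3; intercept, eBayes, Benjamini-Hochberg over all genes with at least 2 probes). Segments came from exact penalised least squares (penalty factor 3, scaled by noise variance and log probe number). The code was tested on simulated data. Python 3.11.15 with numpy 2.4.6, scipy 1.17.1 and pandas 2.3.3 was used. Symbols of the lists were matched in part through RefSeq gene names (assembly GRCm38, coordinates not used). No mm9 annotation was used here, so whether a probe lies in an exon or an intron is not given.

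The members and lists were chosen with earlier results of these data known. Named genes were all 9 members, the nearest gene with at least 2 probes on each side (given for the 4 genes on chromosomes 9 and 15; 1 of these neighbours is not reported here), and the 3 highest and 3 lowest autosomal genes of the lists with at least 2 probes. Alternatives were normexp background correction, removal of trends with intensity or GC, centring on the mode, medians, flagged spots kept, other flanks, slide as a random block, array weights, 1-probe genes, dim probes left out, other thresholds and penalties, segment means, and leaving out tumours.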

Additional observations from a re-analysis of the deposited data

Results flagged for a closer look

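In 42 sets of 4 tumour values checked for 1 value far from the other 3, 2 stood out, and chance flags about 1 in 20 such sets. The gene value of Smarcb1 in tumour 4 was -0.22, against 0.07, 0.08 and 0.07 in tumours 1 to 3, and its gap to the nearest other tumour was 0.950 of the whole range. That value came from probe 2 of Smarcb1. The gene value of Smarca5 in tumour 2 was -0.55, against -0.15, -0.14 and -0.20 in tumours 1, 3 and 4, with a gap of 0.862 of the range. Tumour 2 was the array with the widest probe spread, 0.37. The cause of neither value was tested.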

How the results depend on the processing

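The mean values of Smarca4, Setd2, Arid2 and Kmt2d kept their direction under every alternative run. The genes on 1 side of 0 in all tumours, 4 as reported beside 31.1% of all autosomal genes with at least 2 probes, were not always these. Removing the intensity trend put Smarca4 above 0 in tumour 2 and Arid1a below 0 in all 4 tumours, beside 29.1% of all genes on 1 side. Normexp put Arid1a above 0 in all 4, beside 42.7% on 1 side. With segment means, for which no share is given, Smarca2 was below 0 in all 4 and Setd2 was not. Without tumours 1 and 4, a setting added after seeing the data, 6 members lay on 1 side of 0, beside 66.1% of all genes.

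Limma called 0 genes higher and 0 lower against 0, and 928 and 1291 of 13919 at an unadjusted p under 0.05. It called 132 higher and 224 lower with array weights, 180 and 211 with normexp, and 169 and 192 with the slide as a random block. Among the members only Arid2 passed in these, with array weights. The slide setting rested on a within-slide correlation of -0.31, estimated from 2 slides. A negative correlation of this kind narrows the standard error of the mean. Against the flanks limma called 0 in each direction under all alternatives. The cause of these differences was not tested. Smarca4 was the 1 member on 1 side of its flank in all tumours, beside 29.1% of all genes. With normexp there were 4, Smarca4, Setd2 and Arid2 below and Arid1a above, beside 42.8%. With the median over probes there were 2, Arid1b and Bap1, both below, beside 26.1%, and Smarca4 was above its flank in tumour 3. Without tumours 1 and 4 there were 3, beside 66.6%. Leaving out each tumour in turn gave 1 to 2, for which no share is given.

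Calls numbered 4 gained and 2 lost in the main setting. Shares of all autosomal genes called are given only for that setting, so the counts under other settings stand without a background. A threshold of 0.1 gave 8 and 6, and one of 0.3 gave 2 and 0. Normexp gave 6 gained and 4 lost, and a penalty factor of 6 gave 1 lost, without Smarca4. A penalty factor of 1.5 again gave 4 gained, now Arid2 in tumours 1, 2 and 4 and Kmt2d in tumour 2. Each tumour was called on its own, so leaving a tumour out only takes away its own calls and is no further check. The counts were then 2 to 4 gained, with 2 without tumour 1 and without tumour 2. They were 0 to 2 lost, with 0 without tumour 4.

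Mean directions also turned. For gene values, Smarcb1 read -0.016 with the intensity trend removed, -0.026 centred on the mode and -0.017 as a segment mean. Arid1a read 0.080 with normexp, 0.019 with the median over probes and 0.044 without tumours 1 and 4, and Bap1 read 0.0074 with the intensity trend removed. Leaving out each tumour in turn gave -0.026 to 0.075 for Smarcb1 and -0.037 to 0.018 for Arid1a. For the gene minus its flank, removing the intensity trend gave -0.020 for Smarcb1, -0.036 for Arid1a, 0.0078 for Arid1b, 0.033 for Arid2, -0.0064 for Kmt2d and 0.0093 for Bap1. The median over probes gave 0.0017 for Arid2, and array weights gave -0.0068 for Smarcb1 and 0.040 for Arid2, while normexp moved Arid2 to -0.11 and Arid1a to 0.10. Kmt2d minus its flank, 0.09 as reported, ranged from -0.0064 to 0.18, and Setd2 minus its flank from -0.11 to -0.03. Leaving out each tumour in turn gave -0.084 to 0.00068 for Smarca2, -0.033 to 0.073 for Smarcb1, -0.0014 to 0.020 for Arid1a and -0.059 to 0.048 for Arid2. None of these values passed a test in any setting.

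No paired analysis was possible because the tumours form 1 group. Signal over background was high. The number of arrays and, for Kmt2d, Bap1 and Smarcb1, the number of probes limit what can be seen. Values and counts also moved with the background correction and with removal of the intensity trend, as given above. The noise of tumour 2 limits its single probes.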
